A study of Rattus norvegicus and Homo sapiens with 12 samples.

Results

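Oxidative phosphorylation is carried out in the inner mitochondrial membrane by complexes I to V. Complexes I (NADH dehydrogenase) and II (succinate dehydrogenase) pass electrons to ubiquinone, complex III passes them to cytochrome c, complex IV (cytochrome c oxidase) passes them to oxygen, and complex V makes ATP from the proton gradient that complexes I, III and IV build. Most subunits are encoded in the nucleus and imported, while the mitochondrial genome (mtDNA) encodes a few core subunits of every complex except complex II. The genes examined here are the nuclear ones, chosen by name: protein-coding symbols that begin with NDUFA, NDUFB, NDUFC, NDUFS or NDUFV, with UQCR, with COX4 to COX8 or with ATP5, plus SDHA, SDHB, SDHC, SDHD and CYC1. Of the 60107 identifiers in the human count table, 91 met this rule, 40 in complex I, 4 in complex II, 10 in complex III, 17 in complex IV and 20 in complex V.

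RNA was taken from DU145, a human prostate cancer line grown in DMEM with FBS, as 3 samples of the parental population (F0) and 3 of the MSC-selected population (F2). F2 DU145 had recovered from repeated exposure to conditioned media (CM) of purchased human mesenchymal stem cells (MSCs). The sample labels give 2 rounds of 72 h in MSC CM and the series text gives 3, with 48 h in complete media in between. The replicates are described as biological, but the sources used here do not say whether the F2 samples came from separate selections, so n, SD and p describe the spread between these samples. Libraries were made with QuantSeq, a method that starts from the poly(A) tail and gives 1 tag per transcript close to its 3′ end, so that tag counts are little affected by length.

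Counts assigned to genes ranged from 15879480 to 16479239 per library. Levels are given as CPM, the counts of a library scaled to a common total by the TMM method. No 2 libraries of a population agreed within sampling noise. Of 9 epithelial marker genes 7 were tested, and 5 were higher in F2 (KRT8, KRT18, KRT19, EPCAM and CD24) and CDH1 was lower (14.0 against 5.78 CPM, log2 fold change -1.27, adjusted p = 7.6e-07), while KRT5 and CDH2 were at 0. Of 22 MSC marker genes, THY1, POSTN, LUM, SPARC, CXCL12 and VCAM1 were at 0 in every library and 13 lay under 1 CPM. Of the 9 tested, NT5E (158 against 222 CPM, log2 fold change 0.49, adjusted p = 1.3e-06), ALCAM and NES were higher in F2, and FN1 and TAGLN were lower. The summed level of that list was 1723 to 1885 CPM in F0 and 1858 to 1979 CPM in F2, which overlapped. VIM made up most of it at a mean of 1439 and 1453 CPM, and the means of NT5E and ALCAM (166 and 188 CPM) differed more. The part of these markers in the results was not tested.

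F2 was compared with F0 to ask which nuclear subunit genes differed after MSC selection and in which complexes. Of the 91 members, 82 passed the filter on low counts, and 18 of these (22.0%) had an adjusted p under 0.05 in edgeR's quasi-likelihood test, against 18.2% of all 14316 tested genes. Among genes with a mean of at least 10 CPM, 17 of 80 members (21.2%) passed, against 23.3% of all such genes. The share of members that differed was therefore close to the background. By direction, 13 members (15.9%) were lower in F2, where 8.67% of all genes were. The other 5 (6.10%) were higher, where 9.49% of all genes were. At 10 CPM or more, 16.25% of members and 10.9% of such genes were lower, and 5% and 12.4% were higher.

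Most differences were small. The median log2 fold change of the tested members was -0.05, beside -0.00 for all tested genes, and 52 of 82 had an estimate below 0. A change of less than 0.1 on the log2 scale was estimated for 43 members. At 10 CPM or more, SDHA was the 1 member that changed by 0.3 or more. All 3 F2 libraries lay below all 3 F0 libraries for 22 members and above them for 12, where 17.1% and 16.9% of all genes showed these patterns. For all 18 members past the threshold the populations did not overlap. An exact permutation test of 3 against 3 gave p = 0.1 for each of these 18 members, the smallest value it can reach. Groups without overlap always give this value, so the test adds nothing to these calls.

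**Figure D1:**
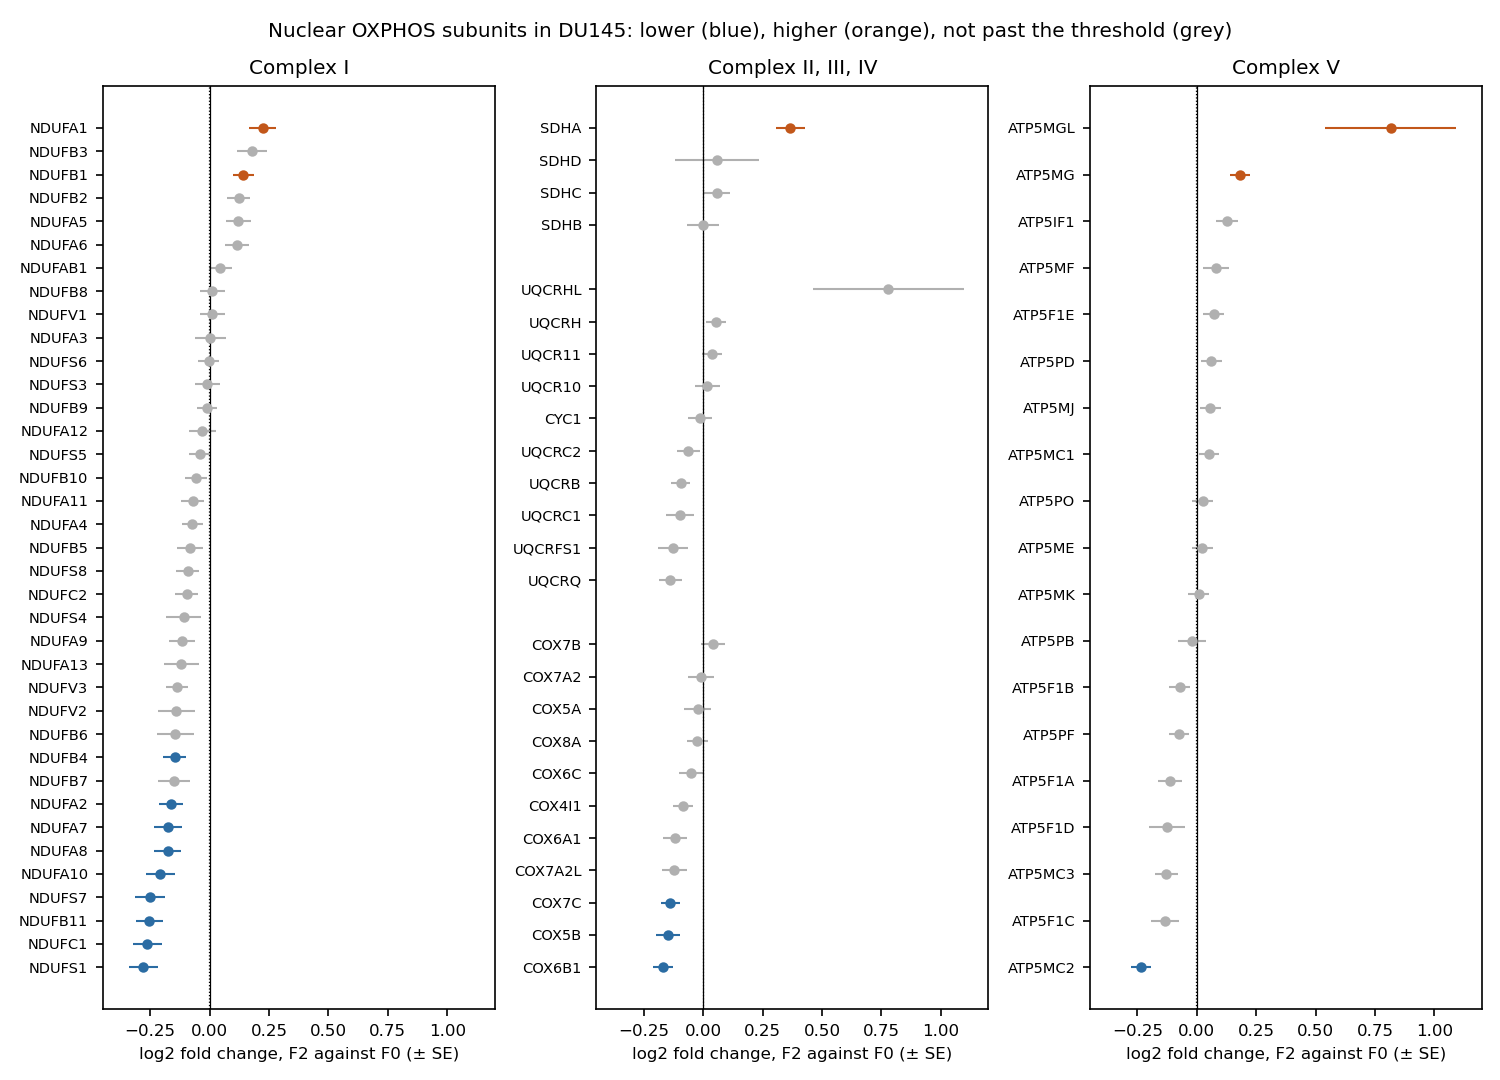
Log2 fold change of F2 against F0 DU145 (x axis, ± SE) for the tested members except 1 that is not reported here, grouped by complex and ordered by size. Blue points are the 13 members lower in F2, orange points the 5 higher, and grey points did not pass the threshold; the solid line marks 0 and the dotted line the median of all tested genes.

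The number of higher and lower calls depended on how libraries were scaled, while each of the 18 members kept its direction. The mitochondrially encoded genes took 5.71 to 6.003% of gene counts in F0 and 10.2 to 10.6% in F2, and the 91 nuclear members took 1.77 to 1.81% and 1.62 to 1.68%. With library size alone in place of TMM, the median of all tested genes was -0.09, and 41 members passed, 40 lower and 1 higher, while 25.4% of all genes passed and 19.6% were lower. With DESeq2, 11 members passed, where 14.1% of all genes did, and all 11 were among the 18. Of these, 7 were lower (8.54% of members, where 6.53% of all genes were) and 4 were higher. A difference between mRNA per cell and mRNA as a share of the total cannot be told apart in these data.

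Complex I, the largest complex, takes electrons from NADH in a matrix arm and pumps protons through a membrane arm. Of its 38 tested members, 11 (28.9%) passed the threshold, 9 lower (23.7%) and 2 higher (5.26%) in F2. Of all tested genes 18.2% passed, 8.67% lower and 9.49% higher. At 10 CPM or more, 23.3% of genes passed and 10.9% were lower. The median log2 fold change over the complex was -0.08, and the 27 members that did not pass had estimates from -0.15 (NDUFB7) to 0.18 (NDUFB3). Of the 7 nuclear core subunits, which carry out electron transfer, 2 fell, and of the 31 tested accessory subunits 7 fell and 2 rose.

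NDUFS1 encodes the largest core subunit, an iron-sulphur protein of the matrix arm (ENSG00000023228, chromosome 2, 206114817 to 206159603, GRCh38). Its level was 54.7, 53.4 and 54.3 CPM in the F0 libraries and 43.9, 44.0 and 46.0 CPM in F2. The F2 libraries lay well below a narrow F0 range, with a log2 fold change of -0.28 (SE 0.060, adjusted p = 0.0026). NDUFS7, the core subunit that holds the last iron-sulphur cluster before ubiquinone (ENSG00000115286, chromosome 19, 1383527 to 1395589), was at 57.3, 54.2 and 54.4 CPM in F0 and 47.1, 48.8 and 43.7 CPM in F2. It fell by 0.25 on the log2 scale (SE 0.063, adjusted p = 0.0086), and without F2 replicate 3 the adjusted p was 0.053. The other core subunits did not pass. NDUFV1, which binds NADH and FMN, had an estimate of 0.01.

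The accessory subunits that fell furthest belong to the membrane arm. NDUFB11 (ENSG00000147123, chromosome X, 47142216 to 47145504) was at 66.3, 65.7 and 64.0 CPM in F0 and 52.7, 57.9 and 53.8 CPM in F2 (log2 fold change -0.25, SE 0.058, adjusted p = 0.0045). NDUFC1 (ENSG00000109390, chromosome 4, 139266880 to 139302551) was at 103, 117 and 111 CPM in F0 and 86.7, 99.4 and 89.9 CPM in F2. The ranges of NDUFC1 were wider and came within a few CPM of each other (log2 fold change -0.26, SE 0.061, adjusted p = 0.0046), and without F0 replicate 2 the adjusted p was 0.053. NDUFA10, NDUFA8 and NDUFB4 of the membrane arm and NDUFA7 and NDUFA2 of the matrix arm also fell, with log2 fold changes of -0.21, -0.18, -0.15, -0.18 and -0.16. Each of these 5 calls was lost in 4 or 5 of the 6 fits that left out 1 library. The highest adjusted p among those fits was 0.11 for NDUFA10 (without F2 replicate 1), 0.15 for NDUFA8 (without F0 replicate 2), 0.22 for NDUFB4 (without F0 replicate 2), 0.22 for NDUFA7 (without F2 replicate 3) and 0.17 for NDUFA2 (without F2 replicate 1).

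NDUFA1 and NDUFB1, small membrane-arm subunits, rose. NDUFA1 (ENSG00000125356, chromosome X, 119871487 to 119876662) was at 155, 167 and 184 CPM in F0 and 201, 188 and 202 CPM in F2 (log2 fold change 0.22, SE 0.057, adjusted p = 0.0091). The F0 libraries of NDUFA1 were spread out, with the highest only just under the lowest F2 library, and the adjusted p was 0.058 without F0 replicate 2 and 0.052 without F2 replicate 1. NDUFB1 was at 285 to 298 CPM in F0 and 313 to 330 CPM in F2 (log2 fold change 0.14, SE 0.043, adjusted p = 0.026), and 4 of 6 fits without 1 library lost the call, with the highest adjusted p at 0.11 without F0 replicate 2. With library size alone, neither rise passed (adjusted p = 0.097 for NDUFA1 and 0.41 for NDUFB1). NDUFS6, the complex I member with the highest mean level, was at 445 to 480 CPM in F0 and 447 to 476 CPM in F2, an estimate of -0.00. Just outside the threshold stood NDUFV3 (log2 fold change -0.14, adjusted p = 0.053) and NDUFB3 (0.18, adjusted p = 0.055), named here after their values were seen.

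**Figure D2:**
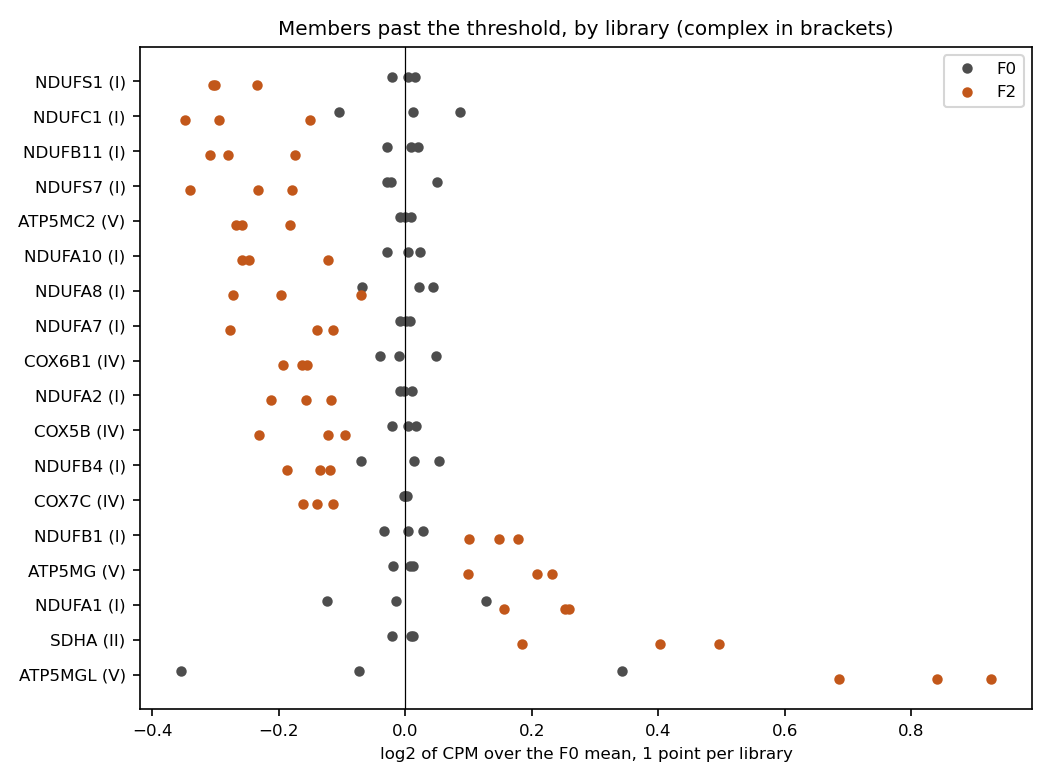
Level of each of the 18 members past the threshold in every library (x axis, log2 of CPM over the F0 mean; 1 point per library, 3 F0 in grey and 3 F2 in orange). The F2 points lie on 1 side of the F0 points in every row, with the smallest gap for NDUFA8 and the widest spread for ATP5MGL.

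Complex II joins the respiratory chain to the citric acid cycle and has 4 subunits, all nuclear. SDHA, the flavoprotein that oxidises succinate (ENSG00000073578, chromosome 5, 218241 to 256700), was at 109, 106 and 109 CPM in F0 and 143, 123 and 152 CPM in F2. Every F2 library was above the tight F0 range, although F2 replicate 2 was closer to it than the others. SDHA rose by 28.97% in mean level, with a log2 fold change of 0.37 (SE 0.063, adjusted p = 0.00035), and the call was kept in all 6 fits without 1 library (0.30 to 0.45). With library size alone the log2 fold change was 0.28 (adjusted p = 0.0033).

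The other complex II subunits did not pass. SDHB, the iron-sulphur subunit bound to SDHA, was at 59.28, 64.8 and 66.45 CPM in F0 and 63.9, 58.2 and 68.4 CPM in F2, an estimate of -0.00 (SE 0.066). The membrane anchors SDHC (198 to 222 CPM in F0, 211 to 237 CPM in F2) and SDHD (12.4 to 25.0 CPM in F0, 15.3 to 23.8 CPM in F2) overlapped between populations, each with a log2 fold change of 0.06. The precision for SDHD was poor, with an SE of 0.18, so a difference of the size seen for SDHA would be hard to detect there. The ratio of SDHA to SDHB was 1.64 to 1.84 in F0 and 2.11 to 2.24 in F2, and did not overlap.

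SDHA has 4 named pseudogenes, which together held 5.28 to 7.43% of the summed SDHA and pseudogene counts in F0 and 6.69 to 8.12% in F2. SDHAP1 on chromosome 3 was at 2.54 to 3.72 CPM in F0 and 4.22 to 5.87 CPM in F2 (log2 fold change 0.61, adjusted p = 0.038), and was named after its values were seen. No stretch of 101 bases, the read length, in the last 400 bases of the SDHA transcript was found in a transcript of another gene. Any part of the pseudogenes in the SDHA count was not tested.

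**Figure D3:**
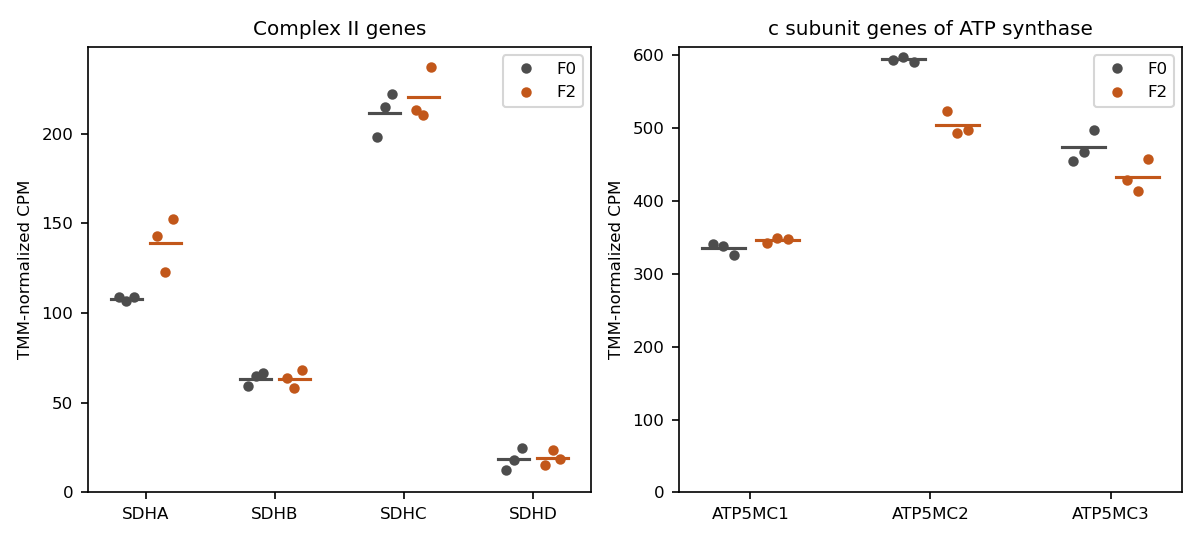
TMM-normalized CPM (y axis) of the 4 complex II genes and of the 3 genes for the c subunit of ATP synthase, with 1 point per library and a bar at the mean (F0 grey, F2 orange, 3 libraries each). SDHA lies at 106 to 109 CPM in F0 and 123 to 152 CPM in F2 while SDHB, SDHC and SDHD overlap. Of the c subunit genes, ATP5MC2 lies lower in F2 without overlap and ATP5MC3 is lower in mean with overlap, while ATP5MC1 lies slightly higher.

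Complex III had no member past the threshold among 10 tested with edgeR or with DESeq2, and 3 had an unadjusted p under 0.05. With library size alone 5 passed, all lower. Its median log2 fold change was -0.04. UQCRQ, a small ubiquinone-binding subunit, was at 423, 425 and 434 CPM in F0 and 400, 358 and 406 CPM in F2, below F0 in every library (log2 fold change -0.14, SE 0.048, adjusted p = 0.051). UQCRB, also a small subunit near the ubiquinone site and the member with the highest mean level in complex III, was at 813, 831 and 810 CPM in F0 and 769, 772 and 757 CPM in F2 (log2 fold change -0.09, SE 0.039, adjusted p = 0.11). The catalytic subunits CYC1, which carries the haem of cytochrome c1, and UQCRFS1, the Rieske iron-sulphur protein, overlapped between populations, with estimates of -0.01 and -0.13. Summed over the complex, the level was 2609 to 2630 CPM in F0 and 2481 to 2551 CPM in F2, which did not overlap. The sum is weighted toward abundant members such as UQCRB and UQCRQ. Of the 10 members, 6 had estimates below 0 and 4 above.

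In complex IV, 10 of 11 tested members had an estimate below 0 and 3 (27.3%) passed, all lower in F2. Of all tested genes 18.2% passed and 8.67% were lower. Among genes at 10 CPM or more, 23.3% passed and 10.9% were lower. The median log2 fold change of the complex was -0.09. COX6B1, which faces the intermembrane space and lies where the monomers of the dimer meet (ENSG00000126267, chromosome 19, 35648223 to 35658861), was at 356, 371 and 349 CPM in F0 and 322, 314 and 321 CPM in F2. It fell by 0.17 on the log2 scale (SE 0.043, adjusted p = 0.0085), and the adjusted p was 0.087 without F0 replicate 2. COX7C, a small membrane subunit, was at 492, 493 and 491 CPM in F0 and 447, 440 and 455 CPM in F2, a near-constant F0 level above all F2 libraries (log2 fold change -0.14, SE 0.040, adjusted p = 0.021). Without F0 replicate 2 and without F2 replicate 1 its adjusted p was 0.10 and 0.097. COX5B, a zinc-binding subunit on the matrix side, was at 126 to 130 CPM in F0 and 109 to 120 CPM in F2 (log2 fold change -0.15, SE 0.050, adjusted p = 0.045), and 5 of 6 fits without 1 library lost the call, with the highest adjusted p at 0.17 without F0 replicate 2.

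COX4I1, a regulatory subunit that binds ATP, was at 509 to 546 CPM in F0 and 490 to 502 CPM in F2 (log2 fold change -0.09, adjusted p = 0.17), and COX6C, with the highest mean level in complex IV, overlapped between populations (-0.05). COX7B was the 1 tested member with an estimate above 0 (0.04). COX7A2L, counted here by its symbol and known for joining complexes III and IV, was at 99.8 to 109 CPM in F0 and 94.0 to 100.3 CPM in F2 (-0.12, adjusted p = 0.12). The summed complex IV level was 3185 to 3279 CPM in F0 and 2981 to 3143 CPM in F2, which did not overlap. With F0 replicate 2 left out, no complex IV member passed.

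Complex V consists of a catalytic head in the matrix and a proton-driven rotor in the membrane. Of its 19 tested members, 1 fell and 2 rose (15.8% in all, where 18.2% of all tested genes passed). The median log2 fold change was 0.02, which became -0.07 with library size alone, when 7 members passed, all lower. Without F0 replicate 1, 6 members passed. The head subunits ATP5F1A and ATP5F1B, which form the catalytic sites, had estimates of -0.11 and -0.07 and did not pass. ATP5IF1, the inhibitor that stops the enzyme from running backwards, was at 264, 244 and 248 CPM in F0 and 285, 265 and 274 CPM in F2, without overlap (log2 fold change 0.13, SE 0.047, adjusted p = 0.069), and was named after its values were seen.

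The c subunit, which forms the rotor ring, is made from 3 genes, ATP5MC1, ATP5MC2 and ATP5MC3, whose proteins differ in the import sequence that is cut off. ATP5MC2 (ENSG00000135390, chromosome 12, 53632726 to 53677408) was at 594, 598 and 591 CPM in F0 and 524, 494 and 497 CPM in F2. It fell by 0.24 on the log2 scale (SE 0.042, adjusted p = 0.00047), in all 6 fits without 1 library and with DESeq2. ATP5MC3 was at 455 to 498 CPM in F0 and 413 to 458 CPM in F2 (log2 fold change -0.13, adjusted p = 0.072), and ATP5MC1 was at 325 to 341 CPM in F0 and 343 to 349 CPM in F2 (0.05, adjusted p = 0.47); both were named after their values were seen. The summed level of the 3 genes was 1391 to 1414 CPM in F0 and 1255 to 1302 CPM in F2. The ATP5MC2 share of it moved from 41.8 to 42.7% in F0 to 38.2 to 40.4% in F2, and the ATP5MC1 share from 23.003 to 24.6% to 26.5 to 27.8%.

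ATP5MG, a membrane subunit of the part where ATP synthase dimers meet (ENSG00000167283, chromosome 11, 118401154 to 118431496), had the highest mean level of all members. It was at 791, 806 and 809 CPM in F0 and 926, 859 and 942 CPM in F2 (log2 fold change 0.18, SE 0.043, adjusted p = 0.0058), past the threshold in all 6 fits without 1 library. The rise of ATP5MG was 0.09 with library size alone (adjusted p = 0.13). ATP5MGL, a gene on chromosome 22 (42639803 to 42640601) whose coding sequence resembles that of ATP5MG, was also higher, at 1.54, 1.15 and 0.95 CPM in F0 and 2.30, 1.95 and 2.17 CPM in F2. Its estimate was uncertain (log2 fold change 0.82, SE 0.28, adjusted p = 0.045). The call was kept in 1 of 6 fits without 1 library, with the highest adjusted p at 0.16 without F0 replicate 3, and DESeq2 gave 0.16. ATP5MGL lies inside CYB5R3 on the same strand.

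The opening 150 coding bases of the pair are shown for how closely the coding sequences match, and the tags themselves come from nearer the 3′ end; capitals mark the 9 positions that differ.
ATP5MG: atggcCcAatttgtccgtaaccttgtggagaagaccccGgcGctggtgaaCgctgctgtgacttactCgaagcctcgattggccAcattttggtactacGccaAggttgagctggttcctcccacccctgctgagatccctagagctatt
ATP5MGL: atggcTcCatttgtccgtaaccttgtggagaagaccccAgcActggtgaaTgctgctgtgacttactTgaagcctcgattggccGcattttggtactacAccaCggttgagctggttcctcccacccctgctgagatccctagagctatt

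Over the whole coding sequence ATP5MG and ATP5MGL were 91.3% identical. A pair in complex III is closer still. UQCRH, the hinge protein that helps cytochrome c bind, and UQCRHL, a copy on the same chromosome, were 98.5% identical over 273 coding bases. All 4 differences lie in the last 150 coding bases, printed with the same marking.
UQCRH: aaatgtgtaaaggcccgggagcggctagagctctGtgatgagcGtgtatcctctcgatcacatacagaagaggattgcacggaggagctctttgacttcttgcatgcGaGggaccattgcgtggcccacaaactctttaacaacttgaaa
UQCRHL: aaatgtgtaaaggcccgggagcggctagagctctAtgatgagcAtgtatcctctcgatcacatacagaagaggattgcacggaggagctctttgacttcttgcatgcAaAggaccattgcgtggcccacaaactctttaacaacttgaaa

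UQCRH was at 324 to 332 CPM in F0 and 330 to 347 CPM in F2 (log2 fold change 0.05, adjusted p = 0.43). UQCRHL was at 0.83, 1.70 and 0.77 CPM in F0 and 1.98, 1.69 and 1.98 CPM in F2 (0.78, adjusted p = 0.099). Neither pair shared a 101-base stretch in the last 400 bases of its transcripts. Whether reads of the abundant gene were counted for the rare one was not tested.

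Tissue-restricted forms of complex IV subunits had few counts or none. COX4I2, the lung and hypoxia form of COX4I1, the muscle forms COX6A2 and COX7A1, and COX7B2 had 0 counts in all 6 libraries, which allows at most 0.182 to 0.189 CPM in a library (3 counts, counting error only). COX6B2 and COX8C, known from testis, had 34 and 7 counts over all libraries, and NDUFA4L2, a hypoxia-inducible relative of NDUFA4, had 25. Their common counterparts COX6B1, COX8A, NDUFA4, COX6A1, COX7A2 and COX7B were at 116 CPM or more in every library. Of these 6 common forms, COX6B1 alone passed the threshold. The read-through genes NDUFC2-KCTD14 and ATP5MF-PTCD1 also had 0 counts, so 9 members in all were not tested.

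The nuclear sums can be set beside those of the mtDNA-encoded subunits, all 13 of which were higher in F2 with adjusted p under the threshold (median log2 fold change 1.11, lowest for MT-ND4L at 0.28 and highest for MT-ATP6 at 1.53). For complex I the mtDNA-encoded sum was 16380 to 18135 CPM in F0 and 36275 to 39279 CPM in F2, and the nuclear sum was 5203 to 5239 CPM and 5075 to 5213 CPM, which overlapped. The ratio of mtDNA-encoded to nuclear counts was 3.15 to 3.46 in F0 and 7.06 to 7.74 in F2 for complex I, 1.15 to 1.196 and 2.76 to 3.14 for complex III, 2.91 to 3.12 and 6.28 to 6.42 for complex IV, and 0.93 to 0.98 and 2.60 to 2.69 for complex V. These ratios within a library do not depend on the scaling and did not overlap in any of the 4 complexes. The ratio is one of tags primed on poly(A), which need not be that of molecules.

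**Figure D4:**
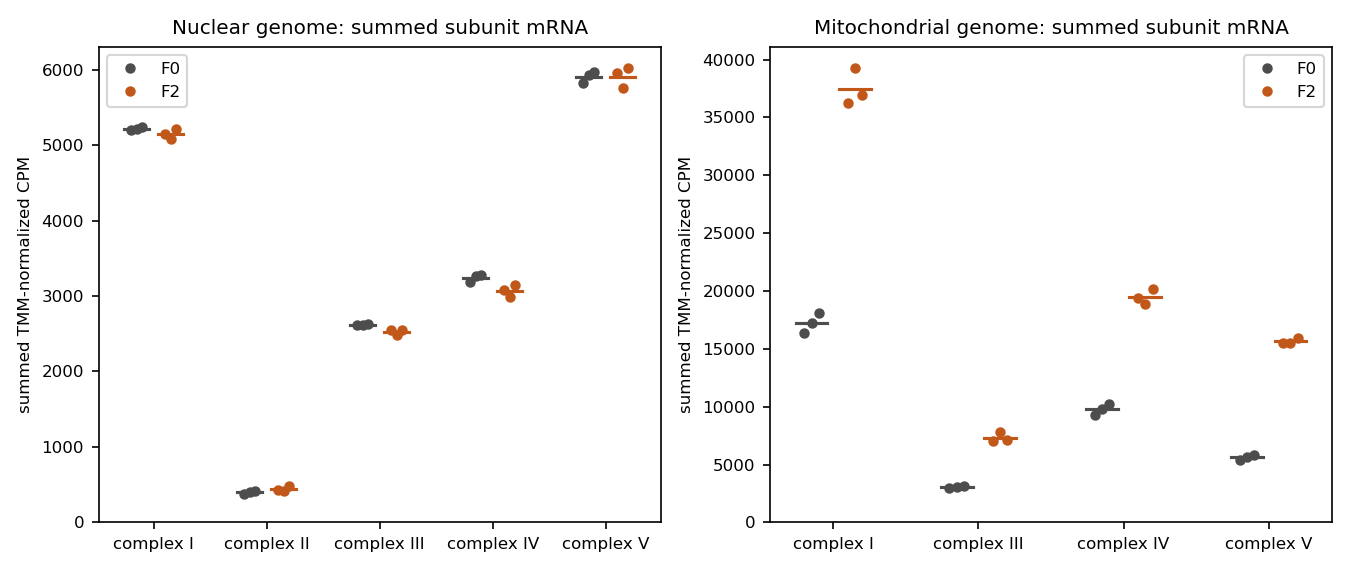
Summed TMM-normalized CPM (y axis, linear from 0) of the nuclear members and of the mtDNA-encoded subunits of each complex, with 1 point per library and a bar at the mean (F0 grey, F2 orange). Nuclear sums of complexes III and IV do not overlap between populations and those of I, II and V do, while every mtDNA-encoded sum is higher in F2.

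Of other genes that serve the same complexes, 58 assembly factors were tested and 4 (6.90%) passed, where 18.2% of all tested genes did. All 4 were among the 24 factors of complex IV (16.7%), a share near that of all genes. COX17, a copper chaperone, and COX14 rose (log2 fold changes 0.20 and 0.23), and SURF1 and COX11, needed for haem and copper insertion, fell (-0.27 and -0.29). Of the 24 complex IV factors, 2 passed without F0 replicate 2, and scaling by library size alone gave 5, all lower. None of the 18 complex I, 4 complex II, 6 complex III or 6 complex V assembly factors passed in the reported edgeR fit. At an unadjusted p under 0.05 there were 3, 0, 0 and 1 of them, and DESeq2 called 1 complex I factor and none of the others. With library size alone, 4 complex I factors and 1 complex V factor passed, all lower. The replicate block, and leaving out F0 replicate 1, each gave 1 complex I factor higher and 1 complex V factor lower, and leaving out F2 replicate 2 or the mitochondrially encoded genes gave 1 complex I factor higher. In the citric acid cycle, FH, SUCLG1 and IDH3A rose (0.25, 0.18 and 0.16) among 13 tested. None of these 3 rises passed when scaled by library size alone, and 1 gene of the list was past the threshold without F0 replicate 2. FH, fumarase, acts on the product of SDHA and was at 65.0 to 73.5 CPM in F0 and 79.0 to 92.0 CPM in F2.

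Among 20 genes for mobile carriers and ubiquinone supply, SQOR, a sulphide dehydrogenase that reduces ubiquinone, rose from 94.1 to 96.3 CPM in F0 to 129 to 135 CPM in F2 (log2 fold change 0.48, adjusted p = 6.9e-07). GPD2, another ubiquinone-reducing enzyme, rose by 0.22, and COQ2, an enzyme of ubiquinone synthesis, fell by 0.37 on the log2 scale. These 3 genes were 15% of the list, where 18.2% of all tested genes passed. Of 12 tested regulators of respiratory genes, ESRRA and GABPB2 rose (0.26 and 0.33) and TFAM, which packages mtDNA and starts its transcription, fell (-0.20, adjusted p = 0.027). They made up 25% of the regulators tested. Scaled by library size alone, 6 regulators passed, 1 higher and 5 lower, and 1 passed without F0 replicate 2 and 5 without F0 replicate 1. PPARGC1A was at 0 counts. Of the 6 tested genes linked to respiration in hypoxia, BNIP3 (0.53, adjusted p = 1.5e-07) and PDK1 (0.42) rose, while LDHA had an estimate of -0.00. In the reported fit 2 of the 6 (33.3%) passed, and without F2 replicate 3, 1 did. None of the 4 phosphate and adenine nucleotide carriers passed in the reported edgeR fit or with DESeq2, and 1 had an unadjusted p under 0.05. SLC25A3, the phosphate carrier, was closest (log2 fold change -0.14, adjusted p = 0.051). In 5 alternative edgeR fits 1 carrier passed, lower in F2: library size alone, no low-count filter, at least 10 counts in every library, the replicate block, and without F0 replicate 1.

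Some members share their position or their 3′ end with other genes, and the strand setting of the counting is not given in the sources used here. Of the 82 tested members, 20 overlap a gene of at least 1000 counts on the opposite strand, among them 5 that passed: NDUFS1 (EEF1B2), NDUFA7 (RPS28), NDUFA2 (IK), NDUFB11 (RBM10) and NDUFC1 (NAA15). In the last 400 bases of the transcript, 68 tested members shared no 101-base stretch with another gene and 14 shared some, with median log2 fold changes of -0.04 and -0.10. Of the members past the threshold, 14 were in the first set and 4 in the second (NDUFA7, NDUFS7, NDUFB4 and NDUFA2, at 57.3, 34, 8.67 and 8% of stretches). The part of shared reads in these results was not tested.

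The median log2 fold change of all tested genes of a chromosome ran from -0.09 on chromosome 21 to 0.05 on chromosome 7. Of the 18 members past the threshold, COX7C had the smallest change, a log2 fold change of -0.14. Every chromosome median was smaller in size than that, so all 18 members changed by more than the median of their chromosome. With medians this small the comparison could not come out otherwise, and nothing is drawn from it. Any part of chromosome-wide shifts in these calls was not tested. SDHA rose although the chromosome 5 median was -0.07, on which NDUFA2 and COX7C also lie.

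Calls also varied with the libraries used. The members SDHA, ATP5MC2, NDUFS1, NDUFB11 and ATP5MG passed in all 6 fits that left out 1 library. The number of members past the threshold was 7 without F0 replicate 2, 8 without F2 replicate 1 and 11 without F0 replicate 3, and 16 to 19 without each of the others.

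**Figure D5:**
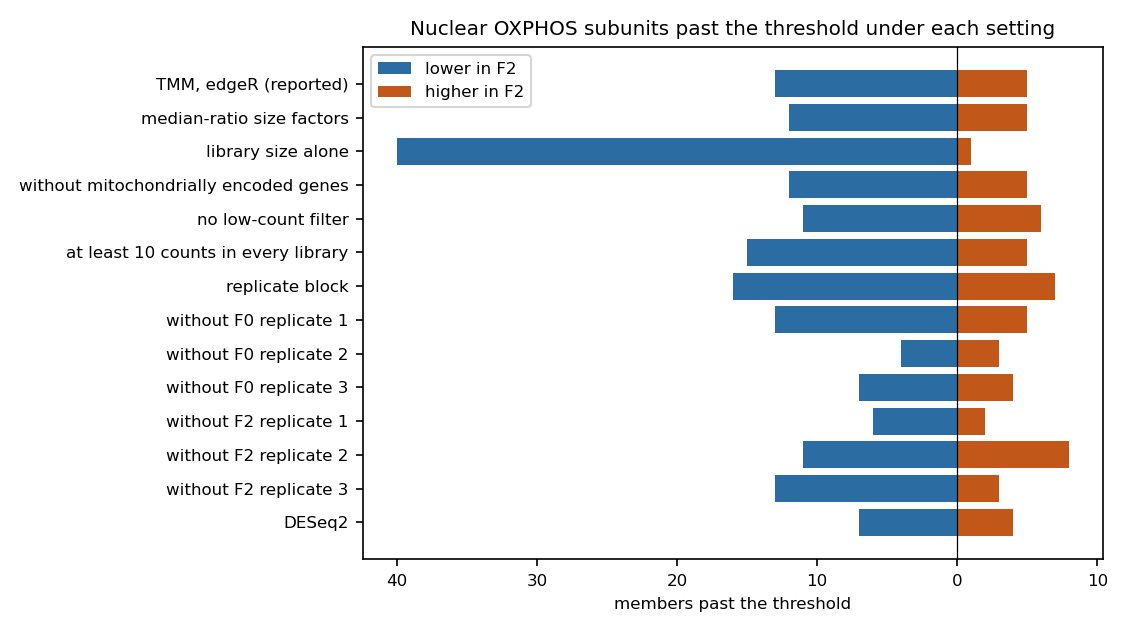
Number of nuclear members past the threshold (x axis, lower in F2 to the left in blue, higher to the right in orange) in the reported fit and under each alternative setting. Library size alone gives 40 lower and 1 higher against 13 and 5 in the reported fit, and leaving out F0 replicate 2 gives 4 and 3.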

How the data were processed

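QuantSeq libraries were made from 500 ng of RNA per DU145 sample and read single-end for 101 bases. The authors deposited raw counts per gene without normalization. The submitters' processing notes name STAR 2.5.2a, HTSeq 0.6.0 and GRCh38, without an annotation or strand setting. Symbols, positions and transcripts were taken from GENCODE release 29, in which 56531 of 60107 identifiers were found, and 56104 were matched to a symbol. Rows that name no gene stayed out, among them reads outside genes (9.60 to 11.9% per library) and ambiguous reads (1.36 to 1.50%).

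Low-count genes were removed by filterByExpr at a count of 10 and a total of 15. TMM factors were applied, and edgeR 4.0.16 in R 4.3.3 was run on all remaining genes (glmQLFit and glmQLFTest), with Benjamini-Hochberg adjusted p under 0.05 as the threshold. SE is the absolute log2 fold change over the root of F. Coding sequences were aligned with Biopython 1.88. Alternatives were median-ratio size factors, library size alone, scaling without mitochondrially encoded genes, other count filters, a replicate block, each library left out, DESeq2 1.42.0, another assignment of members to complexes, and members at 10 CPM or more. The fit was tested on simulated data. The 91 members, the gene lists and the tests were chosen with earlier results of these data known. Genes named are members past the threshold, the highest, lowest and most abundant of each complex, SDHA to SDHD, isoform pairs, the most changed genes of the context lists, and others said to be named after their values were seen or given as group members. Replicate numbers did not pair the samples (correlations of deviations 0.0101, -0.0102 and 0.0291). Promoter motifs were not analysed, and the table of the rat line PAIII was not used here. Some genes are not reported here.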

Additional observations from a re-analysis of the deposited data

How the results depend on the processing

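Every named member past the threshold kept its direction under the alternatives run. The count of all genes past the threshold was 2599 and ranged from 1670 to 2621 without 1 library, lowest without F0 replicate 2, and the count of members from 7 to 19. With library size alone 41 members passed, and 22, 5, 6 and 7 of complexes I, III, IV and V, with medians of -0.14 over all members and -0.17, -0.033, -0.13, -0.18 and -0.066 in complexes I to V. With DESeq2, 11 members and 6 of complex I passed. In complex III, 1 member passed with no count filter, with at least 10 counts in every library and with a replicate block, and 0 to 2 without 1 library. In complex V, 5 passed with a replicate block and 2 to 6 without 1 library. Without 1 library, 3 to 13 passed in complex I and 0 to 3 in complex IV. The medians then ranged from -0.076 to -0.058 in complex I, from -0.019 (without F0 replicate 1) to 0.21 (without F0 replicate 3) in complex II, where 4 genes decide it, and from -0.063 to -0.0063 in complex III. The cause of these shifts was not tested. Same-numbered replicates did not deviate together, and with a replicate block 23 members and 2867 genes passed, against 18 and 2599. Counting NDUFA4 and NDUFA4L2 in complex IV without ATP5IF1 and COX7A2L gave 11, 1, 0, 3 and 3 in complexes I to V. Below about 10 CPM, as for ATP5MGL and UQCRHL, few counts limit the precision.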
